A study of Mus musculus with 24 samples.

Results

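Ly49 receptors are the class I receptors of mouse natural killer (NK) cells, and the Klra genes encode them. Klra2, Klra3, Klra5, Klra6 and Klra7 were described here in leukocytes of BDC2.5 mice, an islet-directed T cell receptor transgenic model of type 1 diabetes, and in splenic cells measured with them. All probe sets annotated to a Klra gene were taken, 12 of 12422 tested, since members of the family are similar enough in sequence for 1 probe set to read several genes. Of the 12, 6 were annotated to 1 of the 5 genes alone, with 2 of these for Klra7. Another 2 carried Klra3 together with Klra9, and 4 carried several Klra genes and none of the 5. Annotation to 1 gene does not show that a probe set reads that gene alone.

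The arrays formed 10 groups, 5 cell populations on each of 2 backgrounds. B6g7 mice are C57Bl/6 with the H2g7 haplotype, the major histocompatibility haplotype of NOD mice, and the labels give them an aggressive islet infiltrate where BDC2.5 is carried. NOD mice carrying BDC2.5 are given a benign one. Total infiltrate, sorted as viable CD45+ cells, had 3 arrays from BDC2.5 B6g7 mice of 25, 28 and 24 days and 3 from BDC2.5 NOD mice of 25 days. Splenic NK cells, sorted as viable CD45+ asialo GM1+ cells, had 2 arrays from B6g7 mice without a transgene, of 6 and 3 weeks for arrays 1 and 2. The 2 NOD NK arrays have no age, and only NOD array 2 is labelled with BDC2.5. Total splenic leukocytes, sorted as viable CD45+ cells, had 2 arrays per background, with no age or transgene given. CD4 T cells high for the BDC2.5 clonotype had 2 B6g7 and 3 NOD arrays from the pancreas and as many from the pancreatic lymph node, at 22 to 25 days. Spleen RNA had 1 round of amplification and all other RNA 2. Whether replicate arrays hold RNA of different mice is not stated, and p-values reflect array-to-array spread, which may be technical.

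Most Ly49 receptors recognise class I molecules of the major histocompatibility complex on other cells and inhibit the NK cell through a motif in their tail that recruits phosphatases. Others lack that motif and activate the cell through the adaptor DAP12 (Tyrobp). Each NK cell expresses only some of the family, and inbred strains differ in how many Ly49 genes they have and in which alleles. Klra3 (Ly49C), Klra6 (Ly49F), Klra7 (Ly49G), Klra9 (Ly49I) and Klra1 (Ly49A) are inhibitory receptors, Klra4 (Ly49D), Klra8 (Ly49H) and Klra23 (Ly49W) activating ones. Klra5 (Ly49E) is known from fetal and early NK cells, and Klra2 (Ly49B) from myeloid cells. Probe sequences were not used here, so how well each probe set matches the alleles of B6g7 or NOD mice was not tested.

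The genes lie in a cluster on chromosome 6, with Klra2 at one end of it. The upstream sequences are shown because they let the members, and Klra9, which shares 2 probe sets with Klra3, be compared base by base. RefSeq promoter entries (GRCm38.p6) were found for all 5 genes, and for Klra9. Klra3, Klra5, Klra6 and Klra9 share an exact run of 21 bases in the 250 bases before the start, ATTGCAATAAGCAATTTCCTC, which both-strand search found in 5 of 32851 promoter entries (0.0152%), the fifth being the predicted gene Gm52487. Each window below is given 5′ to 3′ on the minus strand, at the place of this run, and capitals mark the longest stretch shared with it.
Klra3: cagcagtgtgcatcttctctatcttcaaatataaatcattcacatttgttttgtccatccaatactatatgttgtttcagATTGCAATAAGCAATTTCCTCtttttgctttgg
Klra9: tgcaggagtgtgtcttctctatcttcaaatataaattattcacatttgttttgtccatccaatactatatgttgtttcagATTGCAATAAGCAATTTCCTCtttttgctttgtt
Klra5: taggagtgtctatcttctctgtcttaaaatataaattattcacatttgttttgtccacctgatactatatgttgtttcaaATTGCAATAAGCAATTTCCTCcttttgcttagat
Klra6: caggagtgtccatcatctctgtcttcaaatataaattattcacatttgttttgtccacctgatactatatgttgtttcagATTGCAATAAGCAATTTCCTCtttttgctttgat
Klra7: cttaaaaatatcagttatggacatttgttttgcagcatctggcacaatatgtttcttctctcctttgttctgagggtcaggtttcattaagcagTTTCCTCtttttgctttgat
Klra2: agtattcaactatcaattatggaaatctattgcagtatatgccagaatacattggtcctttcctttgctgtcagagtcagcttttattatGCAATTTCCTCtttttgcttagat
The windows lie at chr6:130337627-130337739 (Klra3), chr6:130193131-130193244 (Klra9), chr6:129913295-129913408 (Klra5), chr6:130027054-130027167 (Klra6), chr6:130233392-130233505 (Klra7) and chr6:131247414-131247527 (Klra2). Klra7 keeps 7 bases of the run in 1 stretch and Klra2 keeps 11. Over the aligned upstream bases, Klra3 and Klra9, which 2 probe sets name together, were identical at 224 of 231, and Klra5 and Klra6 at 204 of 221. Klra2 was the least like the other members, with 76.2% to 79.8% of aligned bases identical.

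Values are log2 of the deposited intensity, and levels of different probe sets were not ranked against each other. Group means were compared with limma over all 24 arrays, and an adjusted p (Benjamini-Hochberg over 12422 probe sets) under 0.05 was taken as passing. A level for absent transcripts, 5.93, was set from 45 probe sets of genes of other organs, whose means ran from 3.08 to 7.18. A group mean at or under it is called at the absent level, and a fold against such a group is a lower bound. Because that level comes from other probe sets, each Ly49 probe set was also set beside its own range in the 10 T cell arrays.

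NK cells carried the family. Against lymph node T cells, averaged over both backgrounds, 11 of 12 Ly49 probe sets were higher in NK cells, where 6.47% of all probe sets were (15.2% in either direction). The 11 differences ran from 1.72 to 6.03, with adjusted p of at most 5.08e-05 in limma. Klra2 was the exception, at 0.13 (SE 0.20, adjusted p = 0.739). Against total splenic leukocytes the count was again 11 of 12 higher in NK cells (23.1% of all probe sets in either direction, 9.68% higher). Every NK array lay above all 10 T cell arrays in those 11 probe sets, a count that was not made over all probe sets. The NK markers Ncr1, Cd244a and Gzma were 2.04, 3.62 and 3.40 higher in NK cells than in lymph node T cells. The summed granulocyte markers ran from 2606 to 9329 in B6g7 and from 567 to 21018 in NOD NK arrays. B cell markers ran from 1213 to 2036 in B6g7 and from 1521 to 2066 in NOD NK arrays. Monocyte and macrophage markers ran from 1160 to 2521 and from 1127 to 2978, and T cell markers from 540 to 2553 and from 714 to 1480. Against lymph node T cells, 7 of 8 B cell genes and 8 of 11 monocyte and macrophage genes passed as higher. The NK groups also had the largest mean 3′ to 5′ Gapdh differences, 5.13 in B6g7 and 4.65 in NOD, against group means of 0.22 to 3.85 elsewhere. The part of any of these in the Ly49 levels was not tested.

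**Figure D1:**
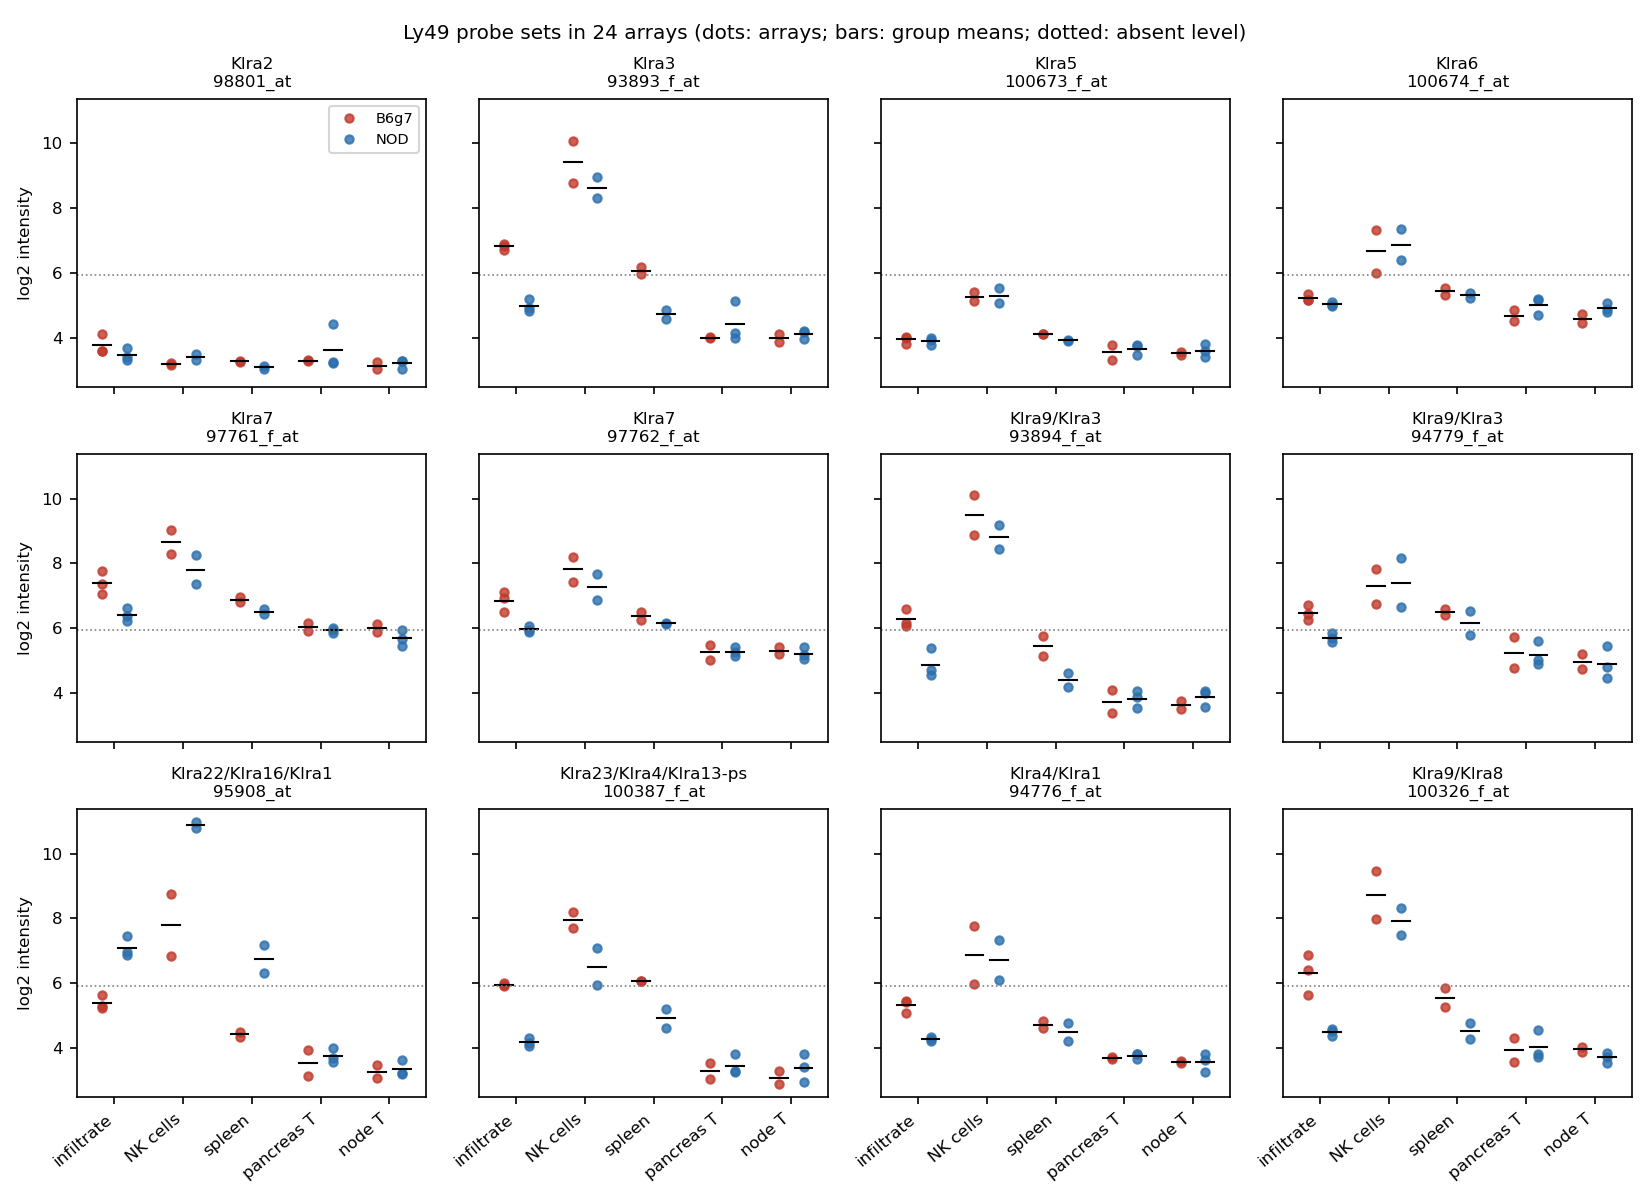
Log2 intensity of the 12 Ly49 probe sets (1 panel each) by cell population, with B6g7 arrays (red) left of NOD arrays (blue), group means as bars and the absent level as a dotted line. NK cells are highest in 11 panels, Klra2 is flat, and in the Klra22/Klra16/Klra1 panel every NOD array lies above every B6g7 array in infiltrate, NK cells and spleen.

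Klra3, an inhibitory receptor for class I, had the widest span of the 5 genes. The probe set annotated to it alone (93893_f_at) read 6.82, 6.91 and 6.72 in B6g7 infiltrates, against 4.83, 4.91 and 5.20 in NOD infiltrates. The B6g7 arrays lay together and far above all 3 NOD arrays. The difference was 1.84 (SE 0.29, limma adjusted p = 0.00826), at least 3.57-fold because the NOD mean is at the absent level. Without B6g7 infiltrate array 2 or NOD infiltrate array 1 the difference was 1.79 and 1.76, short of the threshold (adjusted p = 0.0512 and 0.0574). In bulk samples such as these, more cells that express a receptor and more receptor RNA per cell cannot be told apart. In NK cells it read 10.07 and 8.77 on B6g7, against 8.95 and 8.32 on NOD. These groups overlapped, and the difference of 0.79 (SE 0.36) did not pass. In spleen it read 5.97 and 6.18 on B6g7, against 4.85 and 4.59 on NOD. The spleen groups did not overlap, but 1.35 (SE 0.36) did not pass with 2 arrays a group (adjusted p = 0.601). T cell arrays ran from 3.86 to 5.14, and the highest was pancreatic NOD T cell array 2, of a group whose replicates correlated at 0.817 to 0.882 over all probe sets.

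The order of the Klra3 group means was NK cells of B6g7 (9.42) and NOD (8.63), then B6g7 infiltrate (6.82), B6g7 spleen (6.07), NOD infiltrate (4.98) and NOD spleen (4.72), with the 4 T cell groups last at 3.99 to 4.42. The 2 NK groups overlapped, and so did NOD infiltrate and NOD spleen and the T cell groups with each other. B6g7 infiltrate and B6g7 spleen did not overlap, yet their difference of 0.74 (SE 0.33) did not pass (limma adjusted p = 0.211).

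The 2 probe sets shared by Klra3 and Klra9 followed the Klra3 probe set to different degrees. 93894_f_at read 6.05, 6.59 and 6.16 in B6g7 infiltrates and 4.69, 4.55 and 5.37 in NOD infiltrates. The groups did not overlap, and the difference was 1.40 (SE 0.32, limma adjusted p = 0.0940), short of the threshold. 94779_f_at differed by 0.77 (SE 0.38), also without overlap and without passing. Over the 10 group means, 93894_f_at correlated with the Klra3 probe set at 0.994 and 94779_f_at at 0.940. The highest correlation of the Klra3 probe set was 0.997, with 100326_f_at, annotated to Klra9 and Klra8. The highest correlation of 94779_f_at with any Ly49 probe set was 0.970, with 97762_f_at of Klra7. These correlations are across groups that share 1 array type and in which the NK groups stand apart, and probe sets that cross-read are not independent.

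Klra7, the inhibitory receptor Ly49G, had a pair of probe sets annotated to it alone. Both read higher in all 3 B6g7 infiltrates than in any NOD infiltrate. 97761_f_at read 7.36, 7.04 and 7.75 in B6g7 infiltrates, against 6.20, 6.38 and 6.62 in NOD infiltrates. 97762_f_at read 6.92, 6.51 and 7.10 in B6g7 infiltrates, against 5.88, 5.95 and 6.06 in NOD infiltrates. Neither difference passed, at 0.98 (SE 0.24, limma adjusted p = 0.128) and 0.88 (SE 0.22, adjusted p = 0.169). In NK cells, 97761_f_at read 9.03 and 8.28 on B6g7, against 8.26 and 7.36 on NOD, where the lower B6g7 array lay barely above the higher NOD one. All infiltrate arrays lay above the T cell range of Klra7 on both backgrounds, which for 97761_f_at was 5.43 to 6.15.

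Klra5 and Klra6, which neighbour each other in the cluster, were low outside NK cells. Klra6 (100674_f_at), an inhibitory receptor, read 7.33 and 6.01 in B6g7 and 7.35 and 6.40 in NOD NK cells, and between 4.44 and 5.54 in every other array. Klra5 (100673_f_at) read 5.41 and 5.12 in B6g7 and 5.52 and 5.06 in NOD NK cells, and no array of any group reached the absent level. It was still 1.72 higher in NK cells than in lymph node T cells (SE 0.13, limma adjusted p = 5.89e-08), so this probe set separated those populations. Between infiltrates neither passed, with B6g7 minus NOD differences of 0.18 (SE 0.27) for Klra6 and 0.05 (SE 0.15) for Klra5. Over the 10 group means the pair correlated at 0.991.

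Klra2 (98801_at), the receptor known from myeloid cells, gave no signal above the absent level in any array, with its highest value of 4.42 in pancreatic NOD T cell array 2. It read 3.59, 3.60 and 4.10 in B6g7 infiltrates, against 3.67, 3.40 and 3.31 in NOD infiltrates. These groups overlapped, and monocyte and macrophage markers summed to intensities of 2057 to 3330 in B6g7 and 2483 to 5020 in NOD infiltrates. Its correlations with the other 11 Ly49 probe sets over the group means ran from -0.03 to 0.14.

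The activating receptors Klra4, Klra8 and Klra23 were read by probe sets that name several genes. 100387_f_at, annotated to Klra23, Klra4 and the pseudogene Klra13-ps, read 5.91, 6.00 and 5.96 in B6g7 infiltrates, against 4.07, 4.14 and 4.32 in NOD infiltrates. The difference had the smallest p among the 12, at 1.78 (SE 0.27, limma adjusted p = 0.00625). 100326_f_at, annotated to Klra9 and the cytomegalovirus receptor Klra8, read 5.64, 6.86 and 6.39 in B6g7 infiltrates, against 4.37, 4.53 and 4.57 in NOD infiltrates. It differed by 1.81 (SE 0.37, adjusted p = 0.0466) and lost its call when any 1 infiltrate array other than B6g7 array 1 was left out, with adjusted p up to 0.275. 94776_f_at, annotated to Klra4 and Klra1, was at the absent level in both infiltrates and differed by 1.04 (SE 0.34) without passing (adjusted p = 0.534).

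In NK cells, 100387_f_at read 8.19 and 7.70 on B6g7, against 7.09 and 5.94 on NOD, without overlap. The difference of 1.43 (SE 0.34) did not pass (limma adjusted p = 0.293). 100326_f_at read 9.48 and 7.99 in B6g7 NK cells and 8.33 and 7.49 in NOD NK cells, which overlapped. In spleen, 100387_f_at read 6.05 and 6.07 on B6g7, against 5.21 and 4.61 on NOD, without overlap and without passing at 1.15 (SE 0.34, adjusted p = 0.872).

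The probe set 95908_at, annotated to Klra22, Klra16 and Klra1, read higher on NOD in infiltrates, NK cells and spleen. RefSeq's table gives Klra22 as an older name of the inhibitory receptor Klra1. Klra16 was not in the RefSeq gene order of the cluster, and which of these genes the probe set read was not tested. In infiltrates it read 5.63, 5.28 and 5.24 on B6g7, against 6.87, 6.97 and 7.47 on NOD. In NK cells it read 8.76 and 6.83 on B6g7, against 10.97 and 10.79 on NOD. In spleen it read 4.48 and 4.35 on B6g7, against 7.17 and 6.33 on NOD. The backgrounds did not overlap in any of these populations, while in the 10 T cell arrays it stayed between 3.07 and 3.99.

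In NK cells, 95908_at fell by 3.09 in B6g7 (SE 0.44, limma adjusted p = 0.0129), and it was the 1 of 12 Ly49 probe sets that passed there, where 0.0483% of all probe sets did. Of the 12 differences in NK cells 7 were positive, and those of Klra2, Klra5, Klra6 and 94779_f_at lay between -0.22 and -0.03 without passing. The difference was 2.12 without B6g7 NK array 2, from mice of 3 weeks, and 4.05 without array 1, from mice of 6 weeks, both lower in B6g7 (adjusted p = 0.0491 and 8.25e-05). Without NOD NK array 1 the adjusted p was 0.0514, and without both NK arrays numbered 2, which carry the most granulocyte transcripts, the difference was -2.22 (adjusted p = 0.185). In infiltrates the difference was -1.72 (SE 0.36, adjusted p = 0.0581) and in spleen -2.33 (SE 0.44, adjusted p = 0.0664), both just short of the threshold. Averaged over the 5 populations it was -1.48 (SE 0.18, adjusted p = 1.72e-04), and it passed under all 32 alternatives of that average, with adjusted p up to 0.00118.

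**Figure D2:**
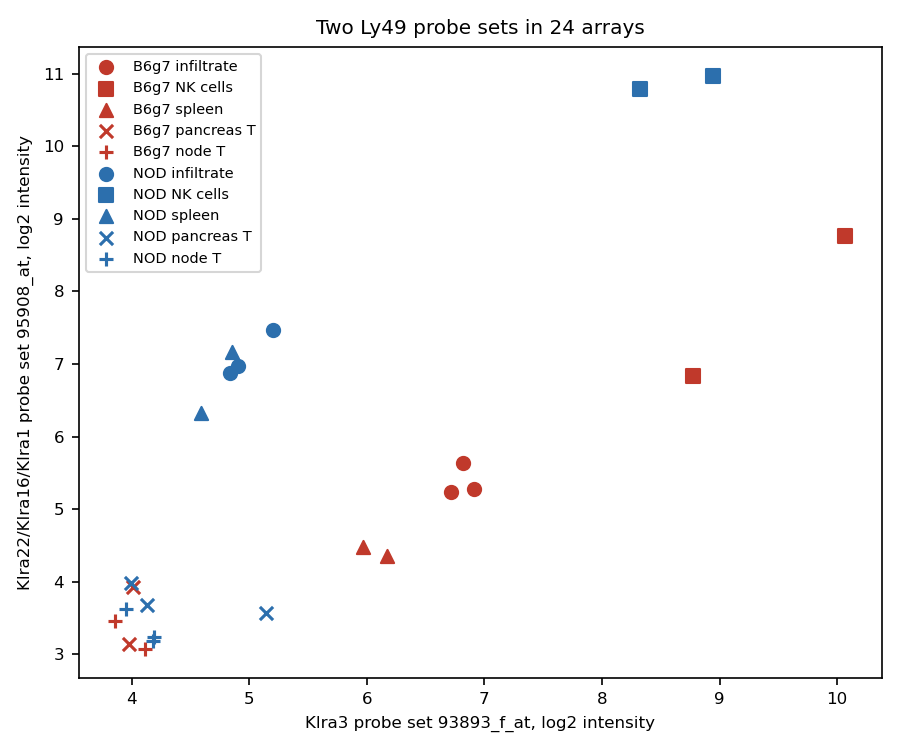
Log2 intensity of the Klra22/Klra16/Klra1 probe set 95908_at (y axis) against that of the Klra3 probe set 93893_f_at (x axis) in 24 arrays, B6g7 in red and NOD in blue, with a symbol per population. NOD infiltrate, NK and spleen arrays lie above the B6g7 arrays of the same population, in infiltrate and spleen also to their left, and T cell arrays of both backgrounds lie together at the lower left.

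In the infiltrates, 3 of 12 Ly49 probe sets passed as higher in B6g7 and none as lower, where 0.274% of all probe sets passed in either direction and 0.217% as higher. Arrays did not overlap for 10 of the 12, against 10.6% of all probe sets, and 11 differences were positive, with a median of 0.93 against -0.02 over all probe sets. Ly49 probe sets may cross-read, so these counts are not of independent readings. The 3 that passed correlated with each other at 0.948 to 0.997 over the 10 group means. The count of passing probe sets was 1 without B6g7 array 2 and 1 without NOD array 1. In the labels, 2 runs of adjacent serial codes held infiltrates of both backgrounds, and the differences within them were 1.95 and 1.52 for Klra3 and 1.80 and 1.64 for 100387_f_at. They were 1.19 and 1.82 for 100326_f_at and -1.29 and -2.23 for 95908_at. What the codes number is not stated, and with these runs as a block none of the 12 passed (adjusted p = 0.0788 for Klra3 and 0.0552 for 100387_f_at).

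B6g7 infiltrate arrays 1 and 2 carried liver transcripts, with list means of 7.63 and 7.16, against 4.16 in array 3 and 4.13 to 4.28 in the NOD infiltrates. Klra3 read 6.72 in the array without them. Leaving both out gave 1.74 for Klra3 and 1.78 for 100387_f_at, neither passing with 1 B6g7 array left (adjusted p = 0.437 and 0.294). RMA is named for all B6g7 infiltrates and for no NOD infiltrate, so that processing note and the background cannot be told apart there. In spleen and in pancreatic T cells RMA is named for all NOD arrays and no B6g7 array. The note and the background cannot be told apart there either. Among NK arrays RMA is named for all but NOD array 1, and it is named for no lymph node T cell array. The part of the note in differences of NK cells was not tested. Within each background, infiltrate differs in this note from spleen and from pancreatic T cells.

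**Figure D3:**
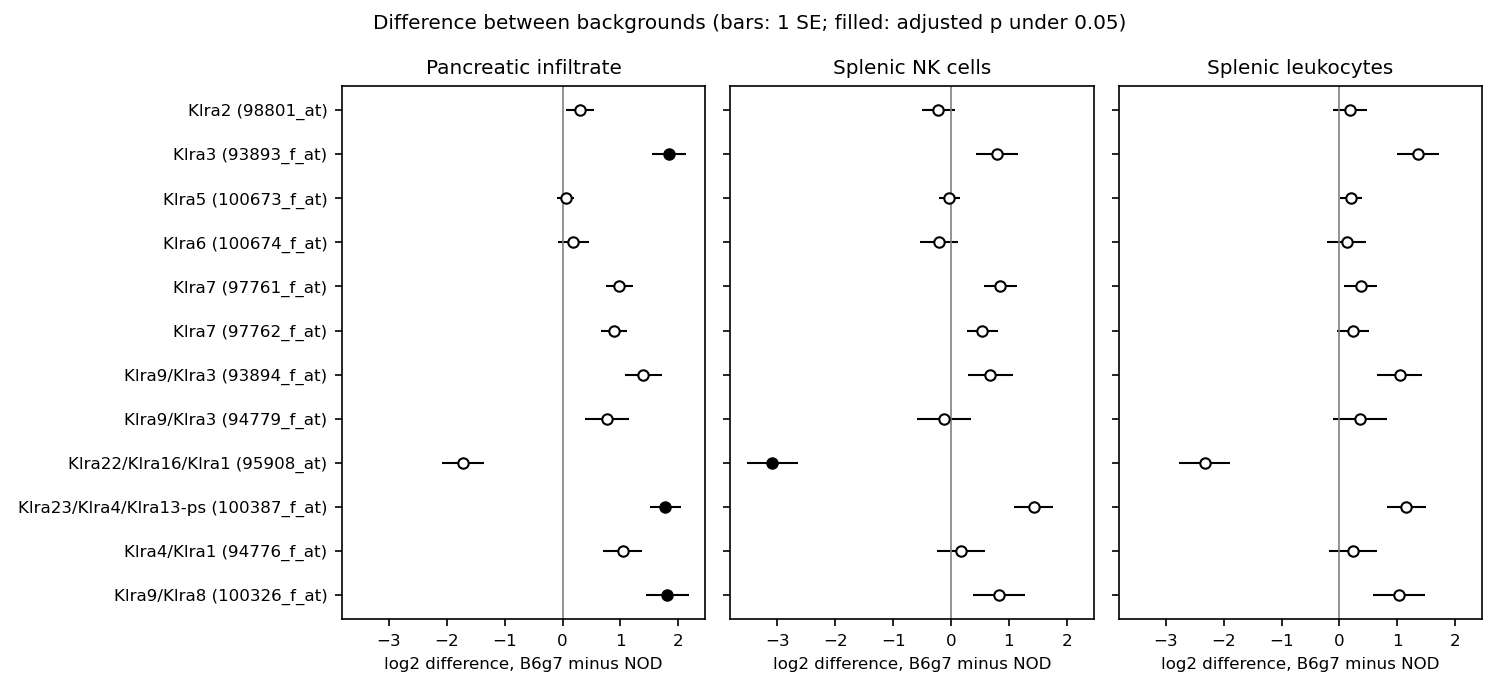
Log2 difference, B6g7 minus NOD, of the 12 Ly49 probe sets in infiltrates, splenic NK cells and splenic leukocytes, with bars of 1 standard error (SE) and filled points for adjusted p under 0.05. The Klra22/Klra16/Klra1 probe set lies left of 0 in all 3 panels, at -1.72, -3.09 and -2.33, and Klra3 right of 0, at 1.84, 0.79 and 1.35.

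In spleen, none of the 12 passed between backgrounds, where 0.0725% of all probe sets did (155 at an unadjusted p under 0.05), although arrays did not overlap for 9 of the 12, against 26.0% of all probe sets. Between backgrounds in T cells none passed either, where 0.145% of all probe sets passed in the pancreas (800 at an unadjusted p under 0.05) and 0.129% in the lymph node (864). The T cell differences ran from -0.42 to 0.10 in the pancreas and from -0.34 to 0.31 in the lymph node. Averaged over the 5 populations, 4 of 12 passed, where 1.17% of all probe sets did. Klra3 (0.69, SE 0.15, limma adjusted p = 0.0274), Klra7 97761_f_at (0.52, SE 0.12, adjusted p = 0.0388) and 100387_f_at (0.78, SE 0.14, adjusted p = 0.00612) were higher in B6g7, and 95908_at was lower. Leaving out 1 array at a time, the Klra7 call was lost for 17 of the 24 arrays (adjusted p up to 0.119) and the Klra3 call for 13 (up to 0.0878), while 95908_at and 100387_f_at passed under every alternative that kept them.

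Whether the infiltrate difference was unlike that of other cells was tested directly. None of the 12 interactions with NK cells passed, where 0% of all probe sets did (101 at an unadjusted p under 0.05), and none of the 12 with spleen, where 0.0403% did (149). For Klra3 the background difference was 1.05 larger in infiltrates than in NK cells (SE 0.46) and 0.48 larger than in spleen (SE 0.46, limma adjusted p = 0.999). For 95908_at the infiltrate difference was 1.37 less negative than that in NK cells (SE 0.57), also without passing.

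Within a background, the infiltrates were set against T cells sorted from the pancreas. On B6g7, 8 of 12 probe sets were higher in infiltrate, where 2.33% of all probe sets were (2.71% in either direction). Klra3 led with 2.82 (SE 0.33, limma adjusted p = 3.83e-05), followed by 100387_f_at with 2.66 (SE 0.31, adjusted p = 3.48e-05), and the Klra7 probe sets differed by 1.36 and 1.60. On NOD, 1 of 12 was higher, where 2.87% of all probe sets were (3.23% in either direction), and it was 95908_at, at 3.36 (SE 0.36, adjusted p = 1.43e-05). Klra3 differed there by 0.56 (SE 0.29, adjusted p = 0.409). Without B6g7 pancreatic T cell array 1, which carries liver transcripts, the B6g7 count was 3. On each background RMA is named for only 1 of these populations, so that note and the population cannot be told apart. NOD pancreatic T cell array 1 also carried liver transcripts, with a list mean of 11.52 against 9.93 in B6g7 pancreatic T cell array 1. Leaving out 1 array at a time, the NOD count stayed at 1. Lymph node T cell array 1 had list means of 9.29 on B6g7 and 6.03 on NOD. The part of these transcripts in differences against T cells was not tested.

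Against total splenic leukocytes of the same background, none of the 12 passed in infiltrates. On B6g7, 7.58% of all probe sets passed (2488 at an unadjusted p under 0.05) and the Ly49 differences ran from -0.22 to 0.97. On NOD, 9.12% passed (2773 at an unadjusted p under 0.05) and the range was -0.73 to 0.47. Spleen RNA had fewer rounds of amplification than infiltrate RNA, which cannot be told apart from the tissue.

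Other NK transcripts moved in the infiltrates beside the Ly49 probe sets. The NK marker list (12 of 14 genes measured) summed to 2017, 1575 and 2657 in B6g7 infiltrates, against 812, 740 and 1387 in NOD infiltrates, without overlap. Of the 12, 11 were higher in B6g7 and 1 passed, where 0.274% of all probe sets did. It was Klrd1 (CD94), at 1.55 (SE 0.30, limma adjusted p = 0.0359). Gzma, a granule protease, differed by 1.68 (adjusted p = 0.122), and Ncr1, the receptor NKp46 that defines NK cells, by 0.19 (adjusted p = 0.999) with both group means at the absent level. The list taken for gamma-delta T cells, which can also carry NK receptors, summed to 1326, 1125 and 1076 in B6g7 infiltrates, against 410, 384 and 381 in NOD infiltrates. Of the 4 genes measured (10 listed), 3 were higher in B6g7 and 2 passed, Trgv1 and Itgae, where 0.274% of all probe sets passed. Itgae encodes an integrin that is not confined to gamma-delta T cells, so this list does not identify that cell type. The part of either cell type in the Ly49 differences was not tested.

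**Figure D4:**
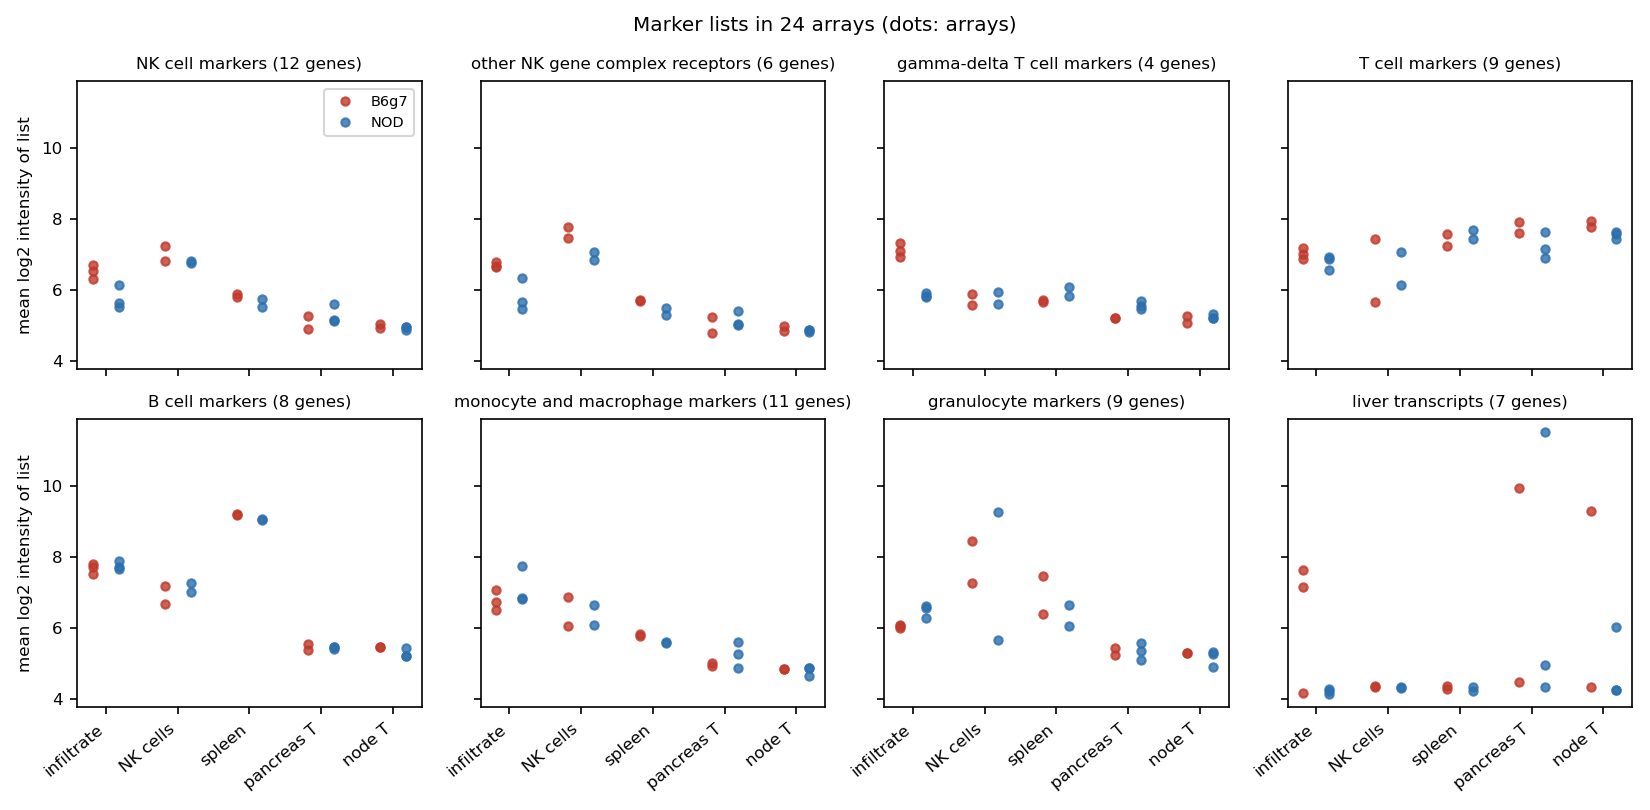
Mean log2 intensity of 8 marker lists per array (1 panel each) by population, B6g7 arrays left of NOD arrays. The NK and gamma-delta lists separate the B6g7 from the NOD infiltrates, granulocyte markers are high in 3 of 4 NK arrays, and liver transcripts are high in 2 B6g7 infiltrate arrays and in single T cell arrays.

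Among the other lectin-like receptors of the NK gene complex, 1 of 6 measured genes passed in infiltrates, where 0.274% of all probe sets did. It was Klrd1, the same gene that passed in the NK marker list, since the lists overlap. All 6 differences were positive, with a median of 0.88 against -0.02 over all probe sets. Klrg1, an inhibitory receptor for cadherins, differed by 1.15 (SE 0.32, limma adjusted p = 0.278), Klrb1a of the NKR-P1 family by 0.97 (SE 0.29, without passing) and Klrk1 (NKG2D) by 0.79 (SE 0.21, adjusted p = 0.210). In NK cells Klrb1a rose by 3.27 in B6g7 (SE 0.36, adjusted p = 7.77e-04), while Klrb1b read 0.82 lower without passing. Against lymph node T cells all 6 were higher in NK cells, where 6.47% of all probe sets were, from 0.60 for Klrc1 to 4.49 for Klrd1.

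The ligands of Ly49 receptors and their loading machinery gave 0 of 11 passing genes between infiltrates by limma, where 0.274% of all probe sets passed. Of the 11, 10 were higher in B6g7, with a median of 0.35 against -0.02 over all probe sets. Psmb9, an immunoproteasome subunit, differed by 0.55, the class I heavy chains H2-D1 and H2-K1 by 0.48 and 0.37, and B2m, their light chain, by 0.39, each with an adjusted p of 0.999. Both backgrounds carry H2g7, per the labels and the known haplotype of NOD mice. Of these 11 genes 5 were lower in NK cells than in lymph node T cells, where 8.68% of all probe sets were, the lowest being Psmb9 at -2.17 and Tapbp at -1.97.

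Signalling molecules downstream of Ly49 receptors gave 0 of 15 passing genes between infiltrates by limma, where 0.274% of all probe sets passed. Their median was 0.10, against -0.02 over all probe sets. The 4 largest differences were 0.39 for Vav1, -0.27 for Plcg2, -0.25 for Syk and -0.24 for Plcg1. Tyrobp, the adaptor DAP12 of the activating receptors, differed by 0.23 (SE 0.50, adjusted p = 0.999). In NK cells against lymph node T cells, Tyrobp was 6.51 higher (SE 0.41, adjusted p = 9.46e-09), and Fcer1g (2.43), Syk (0.93) and Plcg2 (0.79) also rose, while Cd247, the zeta chain, fell by 1.65. Transcription factors of NK cells gave 0 of 9 between infiltrates by limma, beside the same 0.274% of all probe sets. Id2, needed for NK cell development, differed by 1.15 (SE 0.41, adjusted p = 0.692), Gata3 by 0.50 and Irf1 and Sh2d2a, an adaptor protein that the list also holds, by 0.38 each. Id2 (3.66), Prdm1 (0.96) and Eomes (0.88) were higher in NK cells than in lymph node T cells, and Irf1 fell by 1.73.

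The genes most like each member over the 10 group means were taken from 2914 with means that spanned at least 1 log2 unit. For Klra7 (97761_f_at) they were Klrk1 (Pearson r = 0.983), Cst7 (0.976), Klrd1 (0.973), Id2 (0.959) and Il18rap (0.955). For Klra3 they were Klrk1 (0.970), Id2 (0.964), Klrd1 (0.959), Cd244a (0.953) and Ifitm10 (0.951). Klrk1, Klrd1 and Id2 thus stood in both lists, and Klrk1 headed both.

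The lists of Klra5 and Klra6 shared Ifitm10 with that of Klra3. For Klra5 the nearest genes were Ifitm10 (0.989), Vcam1 (0.985), Tspan33 (0.975), Rhag (0.974) and Spic (0.972), and for Klra6 Ifitm10 (0.983), Calm2 (0.969), Ank1 (0.968), Vcam1 (0.968) and Rhag (0.965). For Klra2, whose group means lay within the absent level, they were Ahr (0.888), Il1r2 (0.873), Ncaph (0.846), Plin2 (0.841) and Xdh (0.837). All are descriptions over group means in which the NK groups stand apart, except for Klra2. None of the genes named for Klra5 and Klra6 is in the NK marker list. The NK arrays also carried monocyte and macrophage markers, whose part in these correlations was not tested.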

How the data were processed

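The authors deposited linear intensity per probe set for 24 arrays, used here without change. The submitters' processing notes name RMA for 11 arrays; how the other 13 were processed is not given in the sources used. The lowest value was 5.70, so log2 needed no pseudocount. Of 12488 probe sets, 66 controls were left out. GEO's platform annotation gave the genes, and RefSeq (GRCm38.p6) their present symbols. Group means were fitted with limma 3.58.1 in R 4.3.3 (lmFit, eBayes, 14 residual degrees of freedom, 14 comparisons, two-sided p, Benjamini-Hochberg), after a test on simulated data. Promoters were aligned with biopython 1.88. All Klra probe sets are named, with the 5 nearest genes per member, passing members of 4 lists (class I ligands, signalling, NK complex receptors, transcription factors) and the 4 largest infiltrate differences of each. The members and lists were chosen with earlier results of these data known. Replicate numbers were not taken to pair samples (correlations in infiltrates 0.42, 0.0033 and 0.54). The number of arrays limits precision. Alternatives were other normalizations, a dim filter, another prior, array weights, smaller fits, blocks and left-out arrays.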

Additional observations from a re-analysis of the deposited data

How the results depend on the processing

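Between infiltrates, 3 Ly49 probe sets passed, all as higher in B6g7. The difference of Klra3 stayed between 1.74 and 1.96 under 15 alternatives. The count was 5 with array weights, 4 higher in B6g7 and 1 lower. It was 0 with runs of serial codes as a block and 0 without the infiltrate arrays with liver transcripts, which leaves 1 B6g7 array. In NK cells the count of 1, lower in B6g7, became 2 with array weights, 1 higher and 1 lower. It was 0 in a fit of the compared groups only. Without both NK arrays numbered 2, an alternative chosen after seeing the data, the difference of 95908_at was -2.22. In spleen the count of 0 became 1 with a trended robust prior, lower in B6g7. It was 2 with array weights and 2 in a fit of the compared groups only, each with 1 higher and 1 lower. Against B6g7 pancreatic T cells the count of 8 in infiltrates became 4 with array weights. Against spleen, the count of 0 in B6g7 infiltrates became 4 with array weights and 2 with the compared groups only. In NOD infiltrates it became 1 with array weights. All of these were higher in infiltrate. The cause of these changes was not tested. With the replicate block, which the labels do not support as a pairing, the counts were 5 between infiltrates, 0 in NK cells and 5 in spleen. Each count of 5 held 4 higher in B6g7 and 1 lower. The block gave 3 for B6g7 infiltrate against pancreatic T cells and 4 for B6g7 infiltrate against spleen, all higher in infiltrate. For NOD infiltrate against spleen it gave 1, lower in infiltrate. Leaving out 1 array at a time gave 1 to 3 between infiltrates, 3 to 7 for B6g7 infiltrate against pancreatic T cells, and 2 to 6 for the average over populations, where the full fit had 4. Signs turned for Klra5 between infiltrates (-0.00485 with the serial code block, and from -0.00778 to 0.113 without single arrays) and for probe sets near 0 in spleen and NK cells. Leaving out 1 array at a time, the spleen differences ran from -0.0136 to 0.712 for 94779_f_at and from -0.0439 to 0.510 for 94776_f_at. The NK differences ran from -0.258 to 0.201 for Klra5, from -0.866 to 0.459 for Klra6, from -0.871 to 0.626 for 94779_f_at and from -0.721 to 1.05 for 94776_f_at. With 2 or 3 arrays a group, a difference that did not pass is not shown to be absent.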

Other observations

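The NK arrays of a background differed among themselves in the Ly49 probe sets. On B6g7, the array from mice of 6 weeks read higher than the array from mice of 3 weeks in 12 of 12, by 0.07 to 1.93 with a median of 1.17, and 7 differed by more than 1. Over all probe sets the median was -0.01, and 0.805% differed by more than 1 in that direction. On NOD, array 1 read higher than array 2, the one labelled with BDC2.5, in 11 of 12, with a median of 0.83 against 0.01 over all probe sets. Each is 1 array against 1, with no replicate check, and granulocyte markers summed higher in the array with the lower Ly49 values on both backgrounds, with sums of 2606 in the 6-week and 9329 in the 3-week B6g7 array, and of 567 in array 1 and 21018 in array 2 on NOD. Monocyte and macrophage markers went the same way, at 1160 in the 6-week and 2521 in the 3-week B6g7 array and at 1127 in array 1 and 2978 in array 2 on NOD. T cell markers went with the Ly49 values, at 2553 in the 6-week and 540 in the 3-week B6g7 array and at 1480 in array 1 and 714 in array 2 on NOD. NK markers did as well, at 3189 and 2202 in those B6g7 arrays and at 2435 and 2017 in those NOD arrays. The part of any of these in the differences was not tested.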
